A study of Mus musculus with 6 samples.

Results

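Gusb, the gene for the lysosomal enzyme beta-glucuronidase, was followed in mouse brain after sham surgery and in a surgical model of ischemic stroke that blocks the middle cerebral artery for a time (tMCAO, transient middle cerebral artery occlusion). It is 1 of the 15 genes that the array names by a RefSeq accession, and its probe is 1 of the 44288 that could be tested out of 60915. The gene was chosen on its difference between tMCAO and sham on these same arrays. Its levels in that comparison are therefore a description and were not tested. The probe is printed 20 times on each array, so that 120 spots of it were read in all.

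The sham group was 3 male mice aged 8 weeks. The tMCAO group was 3 male mice of the same age, killed 12 h after blood flow had been restored, with RNA taken from the ischemic cortex of each animal. The labels call the sham samples brain tissue, and no time after surgery was listed for them. Strain, length of occlusion and side were not given in the sources used here. If the groups differed in brain region or in time, that cannot be told apart from tMCAO. RNA freed of ribosomal RNA was copied into Cy3-labelled cRNA by random priming and hybridised to 6 single-colour Agilent arrays, 1 for each mouse.

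Beta-glucuronidase is an acid hydrolase of the lysosome, the organelle in which cells break down worn or engulfed material. It removes glucuronic acid from the ends of the glycosaminoglycan chains heparan, dermatan and chondroitin sulfate, which in brain are part of the extracellular matrix and of cell surfaces. Inherited loss of the enzyme causes the lysosomal storage disease mucopolysaccharidosis VII, and Gusb is also widely used as a reference gene in quantitative PCR. In bulk tissue, a larger number of cells that carry Gusb RNA and more Gusb RNA in each cell cannot be told apart.

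Gusb signal was well above background on every spot of every array. Its probe had a mean processed signal, which is the spot's brightness after background subtraction, of 711, 713 and 887 intensity units on sham replicates 1, 2 and 3. It had 1816, 1477 and 847 units on tMCAO replicates 1, 2 and 3. On each array the 300 spots of the 15 probes named as negative had a median between 5.3 and 7.45 units, and the highest single one was 419, on sham replicate 3. Before scaling the groups thus overlapped, because tMCAO replicate 3 lay between sham replicates 2 and 3.

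The arrays themselves differed in brightness. The 75th percentile of processed signal over the non-control spots was 556, 606 and 706 units on sham replicates 1 to 3 and 935, 919 and 537 on tMCAO replicates 1 to 3. tMCAO replicates 1 and 2 were the brightest arrays and tMCAO replicate 3 the dimmest. All levels below are log2 signals relative to that percentile, a scale on which 1 unit is a doubling.

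On this scale Gusb lay at 0.35, 0.23 and 0.33 on sham replicates 1, 2 and 3. It lay at 0.96, 0.68 and 0.66 on tMCAO replicates 1, 2 and 3. Every tMCAO array was above every sham array, tMCAO replicate 1 was the highest, and the other 2 tMCAO arrays lay close together. The mean was 0.31 ± 0.064 for sham and 0.77 ± 0.17 for tMCAO (SD, n = 3 per group). They lay 0.46 ± 0.12 log2 units apart (SE), which is 1.38-fold. Each SE of a group difference comes from a linear model fitted to all tested probes (limma). That fit draws each probe's variance toward that of the others, so the SE is not that of the array values alone.

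The lowest tMCAO array was 0.30 log2 units above the highest sham array. The spread among the tMCAO arrays was as wide as that gap, at 0.30 from lowest to highest, and among the sham arrays it was 0.12. Over all tested probes 11.6% had every tMCAO array above every sham array. A larger difference than that of Gusb was found for 2763 of the 44287 other probes (6.24%), and the median difference over all tested probes was -0.05. In the limma fit over all probes 1.24% were called higher in tMCAO at an adjusted p under 0.05. These shares describe the whole array, and nothing about Gusb is read from them.

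**Figure D1:**
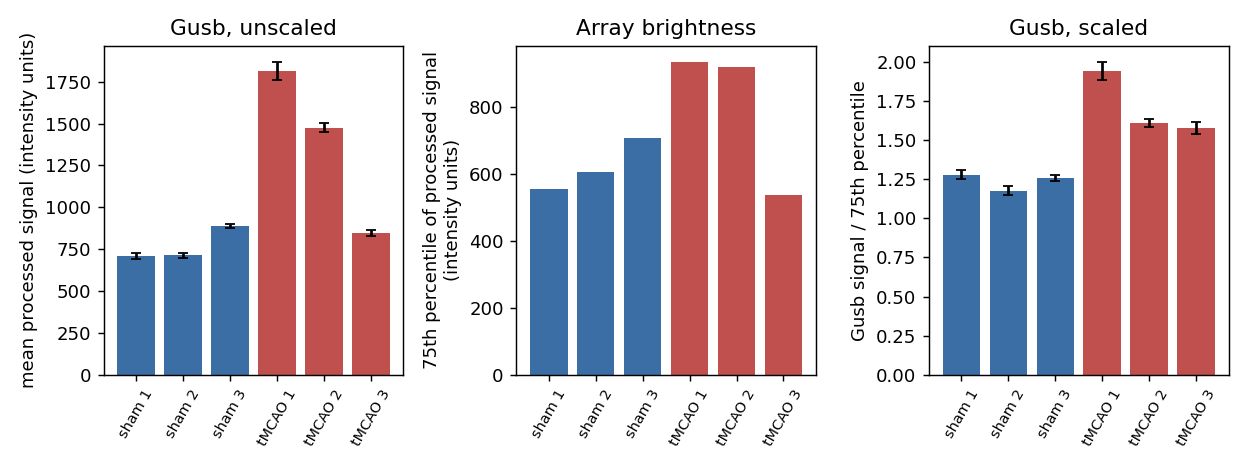
Bar plots over the 6 arrays (sham blue, tMCAO red): mean Gusb processed signal in intensity units, the array's 75th percentile in intensity units, and the first divided by the second; bars on the Gusb panels are the SD over unmarked spots. Without scaling, tMCAO replicate 3 (847 units) lies below sham replicate 3 (887), while after scaling each tMCAO array is above each sham array.

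The 20 spots gave a direct measure of technical error within an array. The scanner software had marked 6 of the 120 spots as outliers, and these were left out of the array means. Over the remaining spots the SD was 0.034, 0.033 and 0.020 log2 units on sham replicates 1, 2 and 3. It was 0.044, 0.024 and 0.035 on tMCAO replicates 1, 2 and 3. The resulting SE of an array's mean was between 0.0046 and 0.0098 log2 units. The SD between arrays of a group was larger than the widest SD within an array, at 0.064 in sham and 0.17 in tMCAO.

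The spots of the groups did not overlap. Unmarked spots ranged from 0.30 to 0.41 on sham replicate 1, from 0.17 to 0.29 on sham replicate 2 and from 0.29 to 0.36 on sham replicate 3. They ranged from 0.87 to 1.03 on tMCAO replicate 1, from 0.63 to 0.73 on tMCAO replicate 2 and from 0.61 to 0.72 on tMCAO replicate 3. The lowest tMCAO spot, 0.61, was above the highest sham spot, 0.41. With the marked spots kept, these extremes moved to 0.52 and 0.48, and they remained apart. Spots of one array are copies of the same measurement and not further mice.

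**Figure D2:**
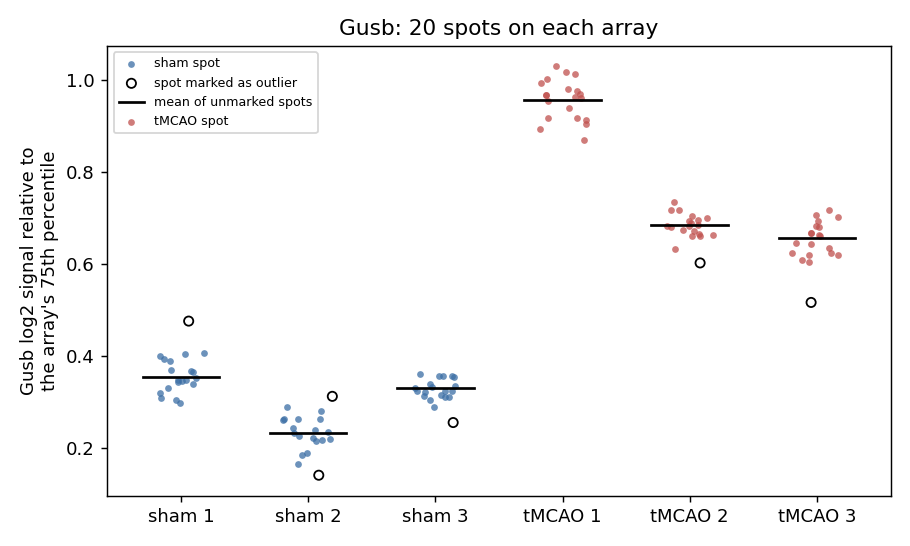
Each point is 1 of the 20 Gusb spots of an array (log2 signal relative to the array's 75th percentile; sham blue, tMCAO red), with spots marked as outliers by the scanner software as open circles and the mean of unmarked spots as a line. The spread within an array (SD 0.020 to 0.044) is small beside the distance between the highest sham array (0.35) and the lowest tMCAO array (0.66).

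Over all 120 spots, the difference between the groups held 80.6% of the sum of squares of Gusb and differences between arrays of a group held 17.1%. The place of a spot on the array held 0.947% and the remainder 1.31%. Most of the variation within groups therefore lay between arrays, and little lay between copies of the probe. The tissue piece, the RNA preparation, the labelling and the hybridisation of a mouse cannot be told apart here, since each mouse had 1 array.

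The small deviations of the spots recurred at the same places. The 20 positions are the same on every array, from row 33 to row 326 of a grid of 384 rows. Across the positions the deviations from the array mean correlated above 0 for 14 of the 15 pairs of arrays (Pearson r from -0.10 to 0.72, median 0.34, n = 20 spots a pair). The pairs share arrays, so these values are not independent of each other. The spot in row 142 was the lowest of the 20 on 3 arrays and was marked as an outlier on 3, namely sham replicate 3 and tMCAO replicates 2 and 3. On tMCAO replicate 3 it lay 0.13 log2 units under the mean of all 20 spots. The spot in row 306 lay above the mean on all 6 arrays, and the spot in row 185 lay below it on all 6. At 20 of the 20 positions every tMCAO array was above every sham array, which follows from the lack of overlap between the spots of the groups. The upper 10 and the lower 10 positions gave the same difference, 0.46 each.

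**Figure D3:**
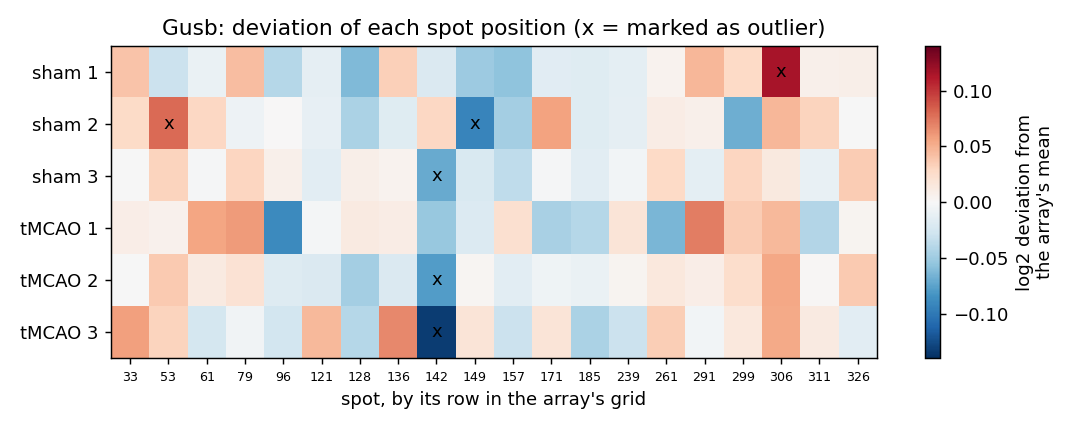
Heat map of the log2 deviation of each of the 20 Gusb spots from its array's mean, with arrays as rows and spots as columns ordered by their row in the array's grid; an x marks a spot that the scanner software called an outlier. The column at row 142 is blue on 5 arrays, with marks on 3, and red on sham replicate 2, and the column at row 306 is red on all 6.

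The spread over spots was compared with the software's own error and between groups. Per spot, the software's error estimate was between 10.01% and 10.04% of the Gusb signal on the 6 arrays. The observed coefficient of variation over unmarked spots was between 1.40% and 3.03%. Among the 15 named genes the median SD over spots of Gusb, 0.033 log2 units, ranked 10th from the tightest, between Hprt at 0.029 and Nono at 0.034. The SD over spots was 0.029 ± 0.0076 for sham and 0.034 ± 0.0099 for tMCAO (SD, n = 3 per group; exact permutation test, two-sided, p = 0.4, adjusted p = 0.4 over 2 tests). The local background around the Gusb spots was 4.66 ± 0.020 for sham and 4.71 ± 0.046 for tMCAO on the log2 scale (SD, n = 3 per group; exact permutation test, two-sided, p = 0.2, adjusted p = 0.4). With 3 arrays against 3 neither test can go below 0.1, so they cannot show a difference at the threshold of 0.05. In intensity units the background was 25.8, 25.1 and 25.3 on sham replicates 1 to 3 and 26.8, 26.7 and 25.3 on tMCAO replicates 1 to 3, and the groups overlapped.

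The file headers give all 6 arrays the same scan and place them in 2 rows of the slide. The upper row held tMCAO replicates 1 and 2 in its columns 1 and 2, and sham replicates 1 and 2 in columns 3 and 4. The lower row held sham replicate 3 in column 1 and tMCAO replicate 3 in column 2. Within the upper row the Gusb difference was 0.53 ± 0.15 log2 units (SE, n = 2 each), where column and group cannot be told apart. Within the lower row, where the order of the groups is turned, it was 0.33, from 1 array of each group and with no replicate check. With the row as a block the difference was 0.46 ± 0.13 (SE). Gusb was higher in tMCAO in both rows, which had to be so because the groups are apart over all 6 arrays. The row block could not change the difference, since each row held as many tMCAO as sham arrays. These values are therefore no check on slide position, and whether the size of the difference varied between rows was not tested.

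The size of the difference held under most scalings. With quantile normalization it was 0.45 ± 0.12 log2 units and with median scaling 0.53 ± 0.14. With normexp background correction it was 0.44 ± 0.12 and with no background subtraction 0.44 ± 0.12 (SE throughout). Without any scaling it was 0.78 ± 0.33, and the median over all tested probes moved by the same step, to 0.27 from -0.05. The unscaled log2 signal was 9.47, 9.48 and 9.79 on sham replicates 1 to 3 and 10.83, 10.53 and 9.73 on tMCAO replicates 1 to 3.

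The authors' deposited table of log2 normalized values also held the Gusb probe. It lay there at 9.80, 9.67 and 9.77 on sham replicates 1, 2 and 3 and at 10.37, 10.09 and 10.10 on tMCAO replicates 1, 2 and 3. The order of the arrays differed from the one above in a single place, with tMCAO replicate 3 just above replicate 2, and the groups stayed apart. The means were 9.74 ± 0.067 and 10.18 ± 0.16 (SD, n = 3 each), a difference of 0.44 ± 0.12 (SE). Across probes each column of the table correlated with its own array at 0.9999 or more. The table comes from the same arrays and is no second measurement.

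No single array turned the direction of the difference. Leaving out 1 array at a time gave values from 0.36 to 0.51 log2 units, lowest without tMCAO replicate 1 and highest without tMCAO replicate 3. The 2 groups stay apart in each of these because they are apart over all 6 arrays.

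**Figure D4:**
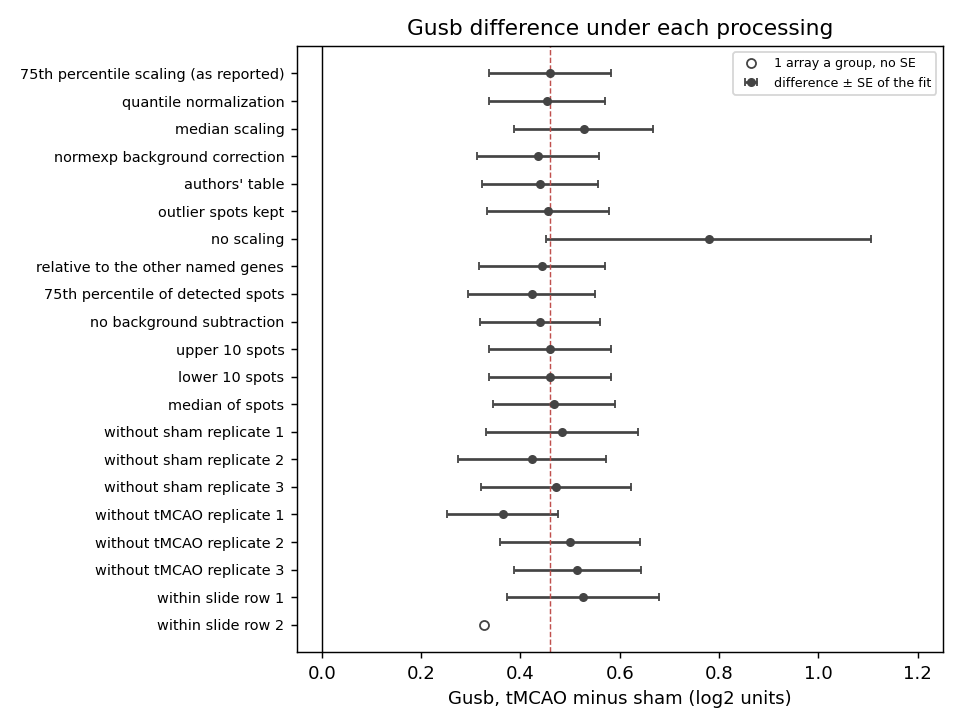
Gusb difference, tMCAO minus sham in log2 units, under each processing setting other than the fits with a block, which give the same difference (points, with the SE of the fit as bars; the open point has 1 array in each group and no SE); the dashed line is the reported value of 0.46 and the solid line is 0. All points lie between 0.33 and 0.78, the highest being the one without scaling.

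Because Gusb often serves as a reference gene itself, its difference was also taken relative to each of the other named genes. Of the 14 others, 13 had values on all 6 arrays, and Gk, a glycerol kinase gene, lacked tMCAO replicate 2, where its spots were marked as outliers. Relative to the mean of the 13, Gusb differed by 0.44 ± 0.13 log2 units (SE). Relative to single genes the difference of Gusb ran from -0.097 against B2m to 0.67 against Tuba1b. Every tMCAO array was above every sham array for 11 of the 13. The exceptions were B2m, where 1 of 3 tMCAO arrays was above every sham array, and the transferrin receptor gene Tfrc, where 2 of 3 were. Turned around, with Gusb as the reference, 12 of the 13 genes lay lower in tMCAO than in sham and only B2m lay higher. This restates the same differences with the sign turned. Both counts rest on the Gusb difference on which the gene was chosen, and they are no test of it.

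The profile of Gusb over the 6 arrays was set beside those of the 13 genes. The most alike were B2m (Pearson r = 0.91), Tbp (0.89) and Tfrc (0.69), and the least alike was Tuba1b (-0.88; n = 6 arrays each). The third place depended on the scaling, and Hsp90ab1, a heat shock protein gene, was close behind Tfrc at 0.688 against 0.692. With quantile normalization G6pd2 (0.46) and Hsp90ab1 (0.45) were both above Tfrc (0.39), and in the authors' deposited table likewise (0.44 and 0.45 against 0.41). B2m and Tbp were the most alike and Tuba1b the least alike under all 3 scalings. Of 44102 other tested probes with values on all arrays, 1276 (2.89%) had a higher r than B2m. These values share the arrays and their scaling, and the groups lie apart for Gusb, so that much of each r is the difference between groups. They are given with no p.

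B2m encodes beta-2-microglobulin, the small subunit of MHC class I proteins. Its level was 5.44, 5.35 and 5.34 on sham replicates 1 to 3 and 5.94, 6.01 and 5.85 on tMCAO replicates 1 to 3. Its tMCAO arrays were all above sham, but tMCAO replicate 2 was the highest, whereas Gusb was highest on replicate 1. Around the group means the r of B2m with Gusb was 0.23.

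Tbp, the TATA-binding protein that helps start transcription, lay at 0.71, 0.60 and 0.65 in sham and at 1.12, 0.82 and 0.68 in tMCAO. tMCAO replicate 3 lay within the sham range. On this scale the order of the tMCAO arrays was that of Gusb, with replicate 1 highest and replicate 3 lowest, and around the group means the r with Gusb was 0.96. tMCAO replicate 1 lay furthest from its group mean for both genes and so weighs most in that r. All r around the group means were computed with 75th percentile scaling only. The share of other probes that reach them was not counted. Replicates 2 and 3 of Gusb lay close together, at 0.68 and 0.66. They changed places with quantile normalization and in the authors' deposited table.

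Tfrc, which takes up iron-bound transferrin, lay at 6.81, 6.73 and 6.75 in sham and at 7.07, 6.81 and 7.25 in tMCAO, so that replicate 3 was its highest array. Around the group means its r with Gusb was 0.067. Tuba1b, an alpha-tubulin of the cytoskeleton, lay at 8.42, 8.41 and 8.39 in sham and at 8.01, 8.37 and 8.22 in tMCAO. It was lowest on tMCAO replicate 1, the array on which Gusb was highest, and around the group means its r with Gusb was -0.81. This was not particular to Tuba1b. Actb, Gapdh and Ppia were also lowest on that array, with r around the group means of -0.89, -0.82 and -0.83. Hsp90ab1 and Nono were highest on it, like Gusb and Tbp, with r of 0.56 and 0.83.

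**Figure D5:**
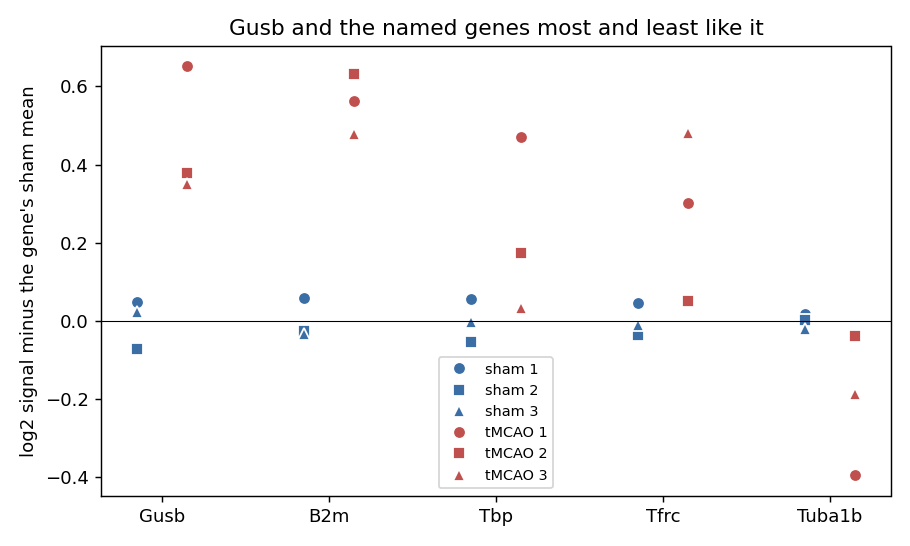
Log2 signal of Gusb, of the 3 named genes with the most similar profile under 75th percentile scaling (B2m, Tbp and Tfrc, the last overtaken by G6pd2 and Hsp90ab1 under quantile normalization and in the authors' table) and of the least similar (Tuba1b), each minus the gene's own sham mean; sham arrays are blue, tMCAO arrays red, and the marker gives the replicate. tMCAO replicate 1 is the highest array for Gusb and Tbp and the lowest for Tuba1b.

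Gusb could not be set among its pathway. Of 51 listed lysosomal genes (hydrolases, membrane proteins, proton pump subunits, sorting receptors and the regulators of lysosomal genes) only Gusb itself is named on the array, and likewise of 15 enzymes of glycosaminoglycan breakdown. Of 34 markers of microglia and macrophages, neutrophils, astrocytes, neurons, oligodendrocytes, vessels and blood, 0 are named. The tissue of origin of the samples and their mix of cells could therefore not be checked, and the part of cell types in the Gusb difference was not tested. The other probes carry design codes or lincRNA names that the tables used here do not tie to genes.

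The RefSeq table lists 4 curated transcripts of Gusb, and the probe's accession is an earlier version of 1 of them. The sequence of the probe was not used here, so which of the transcripts it detects was not assessed.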

How the data were processed

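The submitters' processing notes name Agilent Feature Extraction 11.0.1.1 as the software behind each array's scanner file. Its deposited values are spot intensity, with processed signal already background-subtracted per the file headers, and flags (0 or 1) for outliers and for signal well above background. The authors also deposited log2 normalized values, whose method and centring are not given in the sources used here, as an alternative.

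Processed signal was log2-transformed, each array's 75th percentile (61500 non-control spots) was taken off, outlier-marked spots were removed and spots of a probe were averaged. Probes well above background on at least 3 arrays with at least 2 values per group were fitted (limma 3.58.1, R 4.3.3, Benjamini-Hochberg adjustment). This gave background shares and the SE of Gusb, with variances moderated over all tested probes. Spot measures were compared with exact permutation tests (scipy 1.17.1). Accessions were matched to a RefSeq table of assembly GRCm38.p6 without version, and 15 of 15 matched. No coordinates are given, because the array design names build mm9.

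Gusb, the gene lists and the tests were chosen with earlier results of these data known. The naming rule took Gusb and, of the other accession-named genes, the 3 with the highest and the 1 with the lowest r over the 6 arrays. The replicate number was an alternative block, and it did not pair the arrays by the check in the closing section. Pixel variation within spots was not analysed here, and normexp (offset 50) used median spot signal. Array number limits the precision.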

Additional observations from a re-analysis of the deposited data

How the results depend on the processing

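The Gusb difference of 0.46 log2 units was above 0 in all 22 other settings. Without any scaling it was 0.78, and within the lower row of the slide it was 0.33. In the settings that used only part of the arrays the sign was fixed, because the groups do not overlap. It was also fixed where spots were taken in part, by their median or with marked ones kept, because the spots do not overlap. Both block fits had to give the same difference, since each block held as many tMCAO as sham arrays. The count of 22 therefore includes many settings that could not have turned the sign. The row block, both within-row values, normexp on median spot signal and the differences relative to single named genes were chosen after seeing the data. The other 14 settings that kept all arrays or the upper row gave 0.42 to 0.53, and leaving out 1 array gave 0.36 to 0.51. In the authors' table leaving out 1 array gave 0.35 to 0.49.

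The number of probes called by limma, 630 over all arrays, was 370 with normexp, 263 with no filter on dim probes and 60 to 847 when 1 array was left out, with 60 without tMCAO replicate 1. With replicate number as a block it was 388, and the Gusb difference was 0.46 ± 0.12 (SE). That block could not change the Gusb difference, since each number held as many tMCAO as sham arrays. Same-numbered arrays deviated together only weakly (r of 0.021, 0.095 and 0.13 for numbers 1, 2 and 3 over probes), so the number was not taken to pair them. The share of probes whose groups lay apart in either direction was 24.7% over all arrays. It was 47.9% without tMCAO replicate 3 and 32.3% to 34.9% when any other single array was left out. Fewer arrays overlap less often, so these shares are not on a par with the one over all arrays. Why leaving out tMCAO replicate 3 gave the highest share was not tested.

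The differences in spot spread and in local background kept their sign in every setting run, with exact permutation p between 0.2 and 0.8, in a design that cannot pass 0.05. The difference in spread was 0.0054 log2 units over all arrays and only 0.00055 without tMCAO replicate 1. The settings reuse the same arrays, so no direction is read from the kept sign. Spot pixel variation was not run.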
